A study of Mus musculus with 6 samples.

Results

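Mucins are heavily O-glycosylated proteins of epithelial surfaces, and 6 mucin genes, Muc1, Muc4, Muc13, Muc15, Muc16 and Muc20, were followed through RNA of uterine epithelium from pregnant mice. All probe sets that the array's annotation gives to these symbols were taken, which made 10 probe sets for 6 of the 18193 genes measured, and no member lacked a probe set. The label under which they were grouped covers transmembrane and secreted mucins, but the 6 are all known as membrane mucins, so the secreted ones are described among the related genes. The samples were 2 from Sox17 heterozygous mice (Sox17GFP/+, a GFP allele beside a normal one) on day 4 of pregnancy, 2 from wild-type (WT) mice on day 4, and 2 from WT mice on day 1, the day the plug was found. All were from females, and the epithelium had been freed from uterine pieces with pancreatin and dispase. Sample numbers differ, but nothing states that they are separate animals, so the p-values speak only to how far these samples spread. With 2 arrays in each group, precision is limited throughout. In bulk epithelium, fewer cells of a kind and less RNA per cell cannot be told apart.

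A membrane mucin carries a long extracellular stretch crowded with O-linked sugars, which holds other cells and microbes away from the apical surface. In the mouse uterus Muc1 covers the luminal epithelium, is known to be induced by estrogen, and is lost as the uterus becomes receptive, which is thought to uncover the surface for the embryo. Muc4 is a ligand and partner of the receptor ErbB2, Muc13 is best known from the gut, Muc15 from milk fat globule membranes, Muc16 carries the CA125 antigen and binds mesothelin, and Muc20 is known in human cells to bind the receptor Met. Day 1 of mouse pregnancy is under estrogen and day 4 under progesterone, and SOX17 is a transcription factor of this epithelium.

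RefSeq promoter windows (build GRCm38.p6) were found for 5 of the 6 members, in 6 windows of 300 bases, from 250 before to 50 after the annotated start. The 250 bases before the start are shown for Muc1 and Muc4, on which the genotype comparison turns, and for Muc20, the neighbour of Muc4. Capitals mark a TATA box (TATAAA) or a GC box (GGGCGG). Muc1 lies on the plus strand, chr3:89228806-89229055, Muc4 on the plus strand, chr16:32735636-32735885, and Muc20 on the minus strand, chr16:32797436-32797685.
Muc1: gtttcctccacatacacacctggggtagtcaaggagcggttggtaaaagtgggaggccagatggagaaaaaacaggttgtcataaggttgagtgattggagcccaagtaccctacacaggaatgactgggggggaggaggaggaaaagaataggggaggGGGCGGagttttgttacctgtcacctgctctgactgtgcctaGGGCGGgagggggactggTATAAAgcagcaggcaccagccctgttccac
Muc4: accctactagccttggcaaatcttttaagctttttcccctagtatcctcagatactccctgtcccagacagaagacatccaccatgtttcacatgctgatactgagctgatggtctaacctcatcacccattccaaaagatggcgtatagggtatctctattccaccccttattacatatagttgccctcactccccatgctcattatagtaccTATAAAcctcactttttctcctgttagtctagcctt
Muc20: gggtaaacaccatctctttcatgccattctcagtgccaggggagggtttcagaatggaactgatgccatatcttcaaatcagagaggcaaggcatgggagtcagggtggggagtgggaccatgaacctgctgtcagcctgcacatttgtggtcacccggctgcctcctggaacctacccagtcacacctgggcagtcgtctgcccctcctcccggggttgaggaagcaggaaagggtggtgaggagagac

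Both strands of the 6 windows were searched for the TATA and GC boxes, for AGGTCA as an estrogen receptor half-site, for AGAACA as a progesterone receptor half-site and for the SOX core ATTGT. The TATA box began 31 bases before the Muc1 start and 36 before the Muc4 start, and 13.6% of all 32851 windows held one. GC boxes began 91 and 49 bases before the Muc1 start and were in no other window of the 6, against 35.7% of all windows. AGGTCA stood on the opposite strand of both Muc13 windows (16.3% of all windows), AGAACA on the opposite strand of the Muc16 window (19.0%), and ATTGT in 0 of the 6 windows (31.0%). The Muc20 window held none of these motifs. These are matches of letters and say nothing of binding.

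Each array had a mean signal of 500 after trimming 2% at each end, but the dim range of WT day 4 array 277 was raised: its median was 138, where the remaining arrays had 66.2 to 78.0, and 27.0% of its probe sets were below 50, where they had 41.6% to 44.6%. Signals below 50 are read here as low, since no detection calls were used. At a first probe set Sox17 read 30189 and 28810 in heterozygotes and 34794 and 35060 in WT on day 4 (log2 change -0.24 ± 0.22, SE), and at a second 13304 and 13061 in heterozygotes against 22781 and 18473 in WT (-0.64 ± 0.23). Neither passed in limma over every probe set (adjusted p = 0.654 and 0.407), and since they may or may not read RNA of the GFP allele, they leave the genotype unchecked.

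The first comparison asked how the mucins differed between day 4 and day 1 in WT epithelium. At the probe set of highest mean log2 signal, which stood for each gene, Muc1, Muc4, Muc13 and Muc20 fell steeply, to between 1.06% and 5.95% of their mean day 1 signal. Their other probe sets were at 0.33% to 18.8%. Muc15 and Muc16 had low signals on most arrays of both days and did not pass. By limma with Benjamini-Hochberg adjustment over all genes, 4 of the 6 mucins were lower and 0 higher at an adjusted p under 0.05, where 13.3% of all genes passed in either direction and 5.73% were lower. The median log2 change of the 6 was -4.30, beside 0.30 over all genes.

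Muc1 had signals of 728 and 1089 on the WT day 4 arrays, against 14415 and 16108 on the WT day 1 arrays. Every day 4 signal was far below both day 1 signals, and the day 4 mean was 5.95% of the day 1 mean. The log2 change was -4.10 ± 0.27 (SE, n = 2 arrays per group, limma adjusted p = 0.00717), the 217th lowest of 18193 genes.

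Muc4 was read by 3 probe sets. Probe set 1438555_x_at, which stood for the gene and whose suffix marks probes that may also match other transcripts, had 277 and 145 on WT day 4, against 21157 and 18731 on WT day 1. Its day 4 mean was 1.06% of its day 1 mean, with a log2 change of -6.63 ± 0.39 (limma adjusted p = 0.00646), the 41st lowest of all genes. A second probe set, 1427398_at, had 40.0 and 25.3 on WT day 4, under the level read as low, against 8572 and 11213 on WT day 1 (-8.22 ± 0.35, limma adjusted p = 0.00677 over every probe set, where 9.19% of probe sets passed). The third, 1432119_at, was below 50 on all 6 arrays, with 3.39 and 1.55 on WT day 4 and 36.3 and 26.6 on WT day 1, so it adds little beyond a lower day 4 reading. All 3 had both day 4 arrays below both day 1 arrays. With 2 arrays against 2 such separation alone says little, and how many of all probe sets separate in this way was not counted.

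Muc20 had 261 and 78.6 on WT day 4 at probe set 1451786_at, against 5660 and 8135 on WT day 1. The WT day 4 arrays differed from each other by more than 3-fold, with array 277 the higher, yet both lay far below day 1. The day 4 mean was 2.46% of the day 1 mean and the log2 change -5.55 ± 0.67 (limma adjusted p = 0.0162). Muc20's other probe set, 1442960_at, was dimmer, with 12.5 and 8.09 against 120.0 and 129.9, and was lower too (-3.51 ± 0.29, limma adjusted p = 0.0113 over every probe set).

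Muc13 had 49.5 and 47.9 on WT day 4 at probe set 1419387_s_at, against 1328 and 964 on WT day 1. The day 4 arrays were alike and at the level read as low, 4.25% of day 1, with a log2 change of -4.51 ± 0.41 (limma adjusted p = 0.00972). At 1419386_at the signals were 74.2 and 32.5 on WT day 4 and 446 and 122 on WT day 1, without overlap, but the day 1 arrays lay far apart and the change did not pass (-2.22 ± 0.79, limma adjusted p = 0.168 over every probe set).

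Muc15 had 65.7 and 3.54 on WT day 4 and 3.69 and 6.26 on WT day 1, so 1 array, 277, was above 50 and the days overlapped (log2 change 1.58 ± 1.36, limma adjusted p = 0.499). Without array 277 its change was -0.36, and without WT day 4 array 284, when array 277 stood alone for WT day 4, it was 3.52 and passed (limma adjusted p = 0.0403). Muc16 read 139 and 43.7 on WT day 4 and 31.1 and 45.2 on WT day 1, again with array 277 alone above 50 (1.04 ± 0.61, limma adjusted p = 0.338). Neither gene gives a usable level in this epithelium beyond low.

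**Figure D1:**
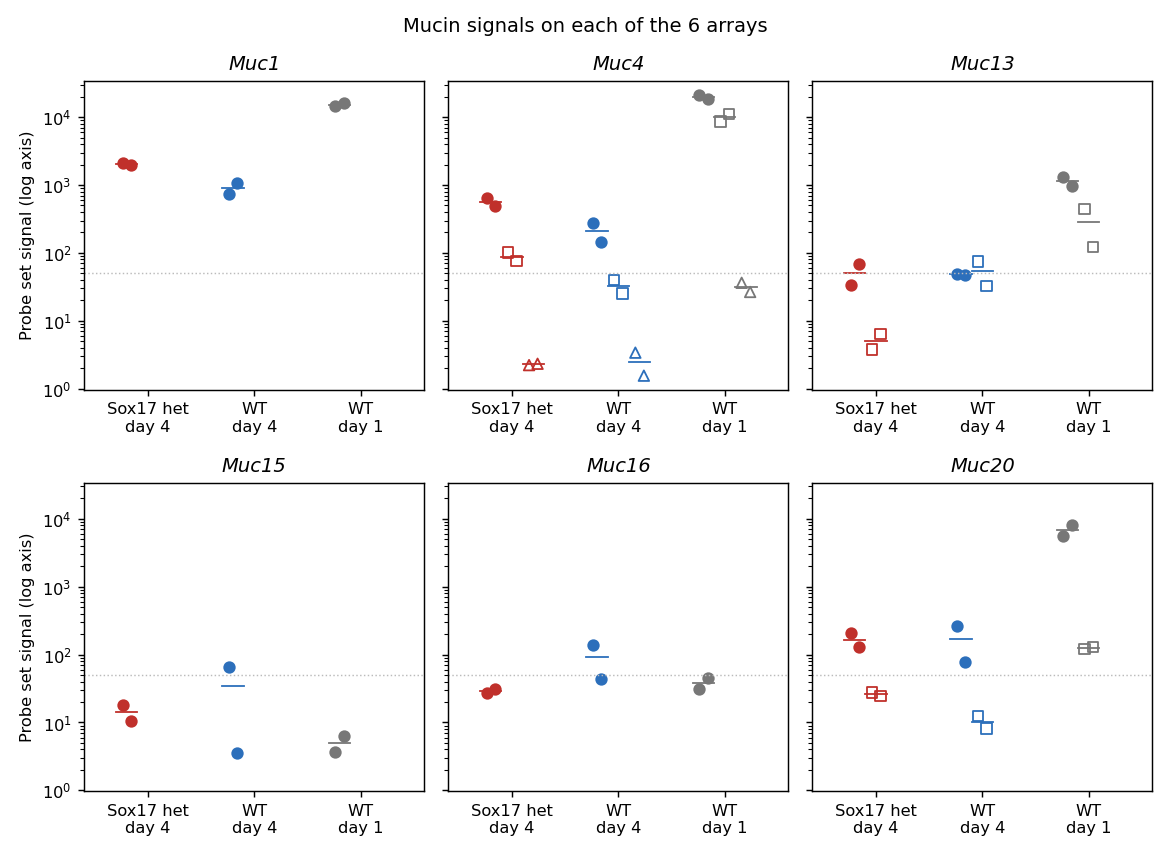
Signals of all 10 mucin probe sets on each of the 6 arrays, on a log axis, with Sox17 heterozygous day 4 in red, WT day 4 in blue and WT day 1 in grey. Filled circles are the probe set that stood for the gene, open squares and triangles its others, short lines the group means and the dotted line a signal of 50. At the probe sets that stood for them, Muc1, Muc4, Muc13 and Muc20 were high on both day 1 arrays and lower on all 4 day 4 arrays, while Muc15 and Muc16 were above 50 on array 277 alone.

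The day calls rest on both day 1 arrays in limma's default fit. Without array 302 or 303 that fit called 0 genes, 3740 and 3946 having an unadjusted p under 0.05, and the 4 mucins then had adjusted p-values between 0.0632 and 0.102. Without either heterozygous array, Muc20 lost its call (adjusted p = 0.0578) and the other 3 kept theirs. The lone day 1 array is then assumed to vary like the arrays of the other groups. When eBayes lets the spread follow the mean intensity (an intensity trend), 24.8% of all genes passed and the same 4 mucins remained called whichever array was left out.

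The second comparison asked how the mucins of Sox17 heterozygous epithelium differed from WT on day 4, using the same WT day 4 arrays. At the probe sets that stood for the genes, Muc1 and Muc4 had more signal in both heterozygous arrays than in both WT arrays, with mean ratios of 2.24 and 2.70. Muc13 and Muc20 overlapped between genotypes there, but not at their dimmer probe sets, where Muc13 was lower and Muc20 higher in heterozygotes. How many of all probe sets separate between genotypes was not counted either. In limma's default fit 0 of the 6 mucins passed, as did 0 of all genes (0%), although 2406 genes had an unadjusted p under 0.05. With an intensity trend, Muc1 and Muc4 were called higher, 2 of 6, where 3.52% of all genes passed and 1.93% were higher. The median log2 change of the 6 was 0.08, beside -0.20 over all genes.

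Muc1 had 2085 and 1988 in heterozygotes and 728 and 1089 in WT on day 4. The heterozygous pair was tight and lay above WT, with a log2 change of 1.19 ± 0.27 (limma adjusted p = 0.241, and 0.00781 with an intensity trend), the 724th highest of 18193 genes. Muc4 had 651 and 485 in heterozygotes and 277 and 145 in WT at 1438555_x_at (1.49 ± 0.39, limma adjusted p = 0.278, and 0.0144 with a trend), the 450th highest. Its second probe set had 101 and 76.2 in heterozygotes and 40.0 and 25.3 in WT, again without overlap (1.43 ± 0.35, limma adjusted p = 0.299, and 0.0424 with a trend, over every probe set, where 0% and 2.37% of probe sets passed). The third, below 50 throughout, had 2.22 and 2.33 in heterozygotes and 3.39 and 1.55 in WT (-0.03 ± 0.36).

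Neither of these 2 trend calls was kept without heterozygous array 253, while both were kept when any of the other 5 arrays was left out. Without array 253 the log2 changes were 1.16 for Muc1 and 1.27 for Muc4, beside 1.19 and 1.49 on all arrays. That fit has 1 heterozygous array, and it called fewer of all genes too, so the loss of calls was not particular to these mucins. With arrays centred on their medians, where the change of all genes had a median of 0.25, the trend fit called Muc4 (1.93, adjusted p = 0.0321) and not Muc1 (1.64, 0.190).

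For Muc20 the heterozygous signals were 206 and 127, inside the WT range of 261 and 78.6 (0.18 ± 0.67, limma adjusted p = 0.913). Its dimmer probe set had 27.7 and 24.4 in heterozygotes and 12.5 and 8.09 in WT, all low (1.29 ± 0.29, limma adjusted p = 0.281, and 0.493 with a trend). Muc13 had 33.9 and 68.3 in heterozygotes around the WT values of 49.5 and 47.9 (-0.01 ± 0.41, limma adjusted p = 0.988). At its other probe set the order differed: 3.76 and 6.35 in heterozygotes, below 74.2 and 32.5 in WT (-3.09 ± 0.79, limma adjusted p = 0.309, and 0.130 with a trend). Muc15 had 18.1 and 10.5 in heterozygotes and 65.7 and 3.54 in WT, and Muc16 had 26.8 and 31.0 against 139 and 43.7 (-0.23 ± 1.36 and -1.41 ± 0.61, limma adjusted p = 0.944 and 0.419). A level this low leaves the genotype difference of Muc13, Muc15 and Muc16 unmeasured rather than absent.

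**Figure D2:**
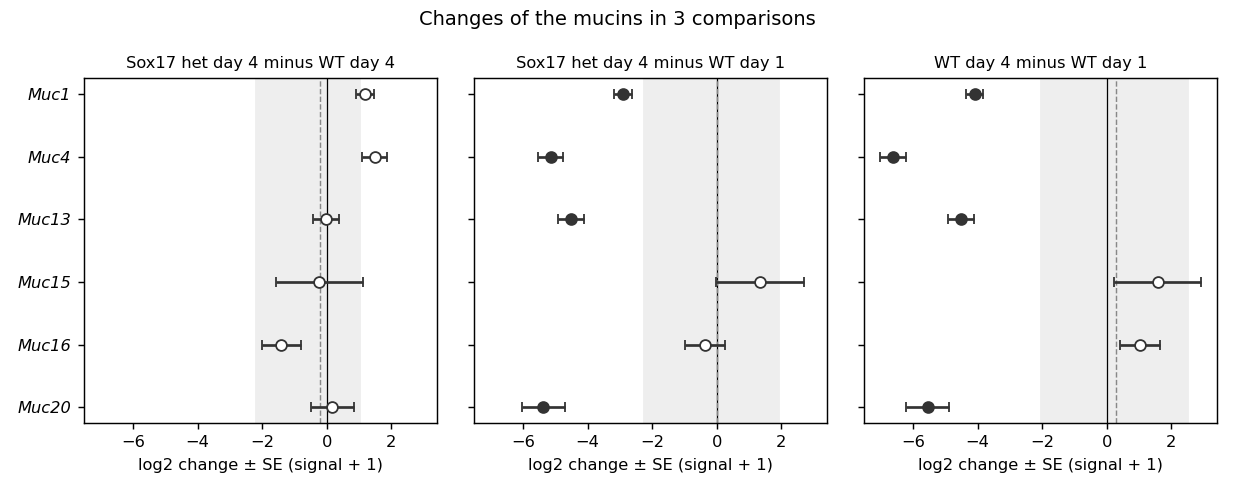
Log2 changes of the 6 mucins (probe set that stood for each gene, signal + 1) with limma standard errors in the 3 comparisons. Filled points passed at an adjusted p under 0.05 in the default fit, grey bands span the 5th to 95th percentile of all 18193 genes and the dashed line is their median. Muc1 at 1.19 and Muc4 at 1.49 lie above the band's upper edge of 1.05 in the genotype comparison, and 4 mucins lie below the bands in both comparisons with day 1.

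Heterozygous day 4 epithelium was also set against WT day 1, a comparison in which genotype and day differ together and which shares its arrays with both others. The same 4 genes were lower, 4 of 6 with 0 higher, where 9.55% of all genes passed and 4.48% were lower. Muc1 had 2085 and 1988 in heterozygotes on day 4, 13.3% of the WT day 1 mean (-2.90 ± 0.27, limma adjusted p = 0.0143), while WT on day 4 had 5.95% of it. Muc4 was at 2.85% of day 1 in heterozygotes (-5.14 ± 0.39, limma adjusted p = 0.0111) and at 1.06% in WT. At the probe sets that stood for them, Muc20 was at 2.42% in heterozygotes and 2.46% in WT, and Muc13 at 4.46% and 4.25%. The log2 changes from WT day 1 in heterozygotes were there -5.38 ± 0.67 for Muc20 and -4.53 ± 0.41 for Muc13 (limma adjusted p = 0.0222 and 0.0137). Their dimmer probe sets differed between genotypes: Muc20 was at 20.9% in heterozygotes and 8.23% in WT, and Muc13 at 1.78% and 18.8%. Over every probe set, where 2122 of 34945 passed, both were lower in heterozygotes than on WT day 1 (limma adjusted p = 0.0293 and 0.0369). With a trend the dimmer Muc20 probe set did not pass (limma adjusted p = 0.115). Leaving out either day 1 array or either heterozygous array ended every call of the default fit (0 genes called; Muc4 then had adjusted p-values of 0.0827 to 0.109), and the trend fit, which called 21.3% of all genes, kept all 4 mucins.

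The machinery around mucins was described from 6 further lists, for which 96 genes were measured. Of these, 9 rose and 21 fell on day 4 against day 1 in WT by limma's default fit, and 7 rose and 13 fell in heterozygotes on day 4 against WT day 1, where 13.3% and 9.55% of all genes passed. Between genotypes 0 passed, with 10 higher and 3 lower in the trend fit, where 3.52% of all genes passed. The counts of each list by day in WT stand against the same 13.3%, to which that of the capping enzymes, 4 of 21, comes near. Most of these genotype calls of the trend fit were not kept without array 253, which leaves 1 heterozygous array and gave fewer calls among all genes too. The log2 changes of the genes so called kept their signs and then ran from -3.71 to 4.96, beside -4.02 to 5.62 on all arrays. With each array's median subtracted, the intensity trend gave 5 calls, where 229 of all 18193 genes passed. The 5 were Clca1, Podxl, Timp3, Fut2 and St3gal4.

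Other mucins and mucin-like surface proteins had 17 of 23 listed genes measured, of which 2 rose, 2 fell and 13 did not pass on day 4 in WT (median log2 change 0.32). Muc6 and Muc19, also listed, had no probe set under their symbols among those used. Of the gel-forming mucins measured, Muc2 had 16.0 and 52.4 in heterozygotes, 49.9 and 25.9 in WT on day 4, and 29.2 and 48.9 on day 1. Muc5ac was below 50 on every array, with 15.3 the higher in heterozygotes, 23.6 in WT on day 4 and 22.3 on day 1. Muc5b had 6.39 and 6.97 in heterozygotes, 15.1 and 4.56 in WT on day 4, and 16.4 and 71.2 on day 1, and none of the 3 passed in any comparison. Podxl, the sialomucin podocalyxin, had 3115 and 2792 on WT day 4 against 82.3 and 81.3 on WT day 1 (5.15 ± 0.28, limma adjusted p = 0.0062). In heterozygotes it had 145 and 224, far below the 3115 and 2792 of WT on day 4 (-4.02 ± 0.28 against WT day 4, limma adjusted p = 0.151, and 0.000117 with a trend). A second Podxl probe set had 43.3 and 50.2 in heterozygotes and 370 and 183 in WT on day 4. Ovgp1, the oviduct-specific glycoprotein, rose on day 4 in WT (5497 and 7309 against 165 and 288, 4.86 ± 0.47), and had 20932 and 10977 in heterozygotes (1.26 ± 0.47 against WT day 4, limma adjusted p = 0.378). The sialomucin Cd164 and the mucin-like Parm1 fell on day 4 in WT (-2.15 ± 0.23 and -2.73 ± 0.39), and Parm1 had 1331 and 730 in heterozygotes against 463 and 308 in WT (1.38 ± 0.39, limma adjusted p = 0.294, and 0.0232 with a trend).

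Enzymes that start and extend O-glycans had 24 of 26 genes measured, with 4 higher, 5 lower and 15 not passing on day 4 in WT (median 0.16). Galnt3, one of the transferases that attach the first sugar, fell (389 and 521 against 5136 and 4823, -3.46 ± 0.25, limma adjusted p = 0.00779). In heterozygotes it had 1163 and 931 (1.21 ± 0.25 against WT day 4, limma adjusted p = 0.225, and 0.0076 with a trend). B3gnt3, which extends core chains, fell by 3.57 ± 0.33. Gcnt3, the branching enzyme of mucin cores, rose to 10452 and 12284 on WT day 4, against 1522 and 1052 on WT day 1 (3.16 ± 0.27), and had 12042 and 10709 in heterozygotes. Galnt1, another initiating transferase, rose by 1.70 ± 0.20. Between genotypes the list's median was -0.23, and Galnt3 and Galnt12 (0.96 ± 0.23, limma adjusted p = 0.252, and 0.0151 with a trend) were called higher in the trend fit.

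Of 21 enzymes listed as capping glycans with sialic acid, fucose or sulfate, 1 rose and 3 fell on day 4 in WT (median 0.69). Which of them act on mucin O-glycans here was not tested. The fucosyltransferases Fut9 and Fut2 fell (-2.85 ± 0.25 and -4.26 ± 0.71, limma adjusted p = 0.00937 and 0.0315), and the sialyltransferase St6galnac5 fell by 2.68 ± 0.41. St3gal4, which adds sialic acid to galactose, rose by 2.82 ± 0.25. Fut9 had 2508 and 1897 in heterozygotes and 1121 and 889 in WT on day 4 (1.13 ± 0.25, limma adjusted p = 0.237, and 0.00781 with a trend). Fut2 had 2983 and 2997 in heterozygotes, 894 and 216 in WT on day 4, and 7997 and 8893 on day 1 (2.76 ± 0.71 against WT day 4, limma adjusted p = 0.274, and 0.0106 with a trend). St3gal4 had 30.0 and 37.9 in heterozygotes, 395 and 300 in WT on day 4, and 49.7 and 46.4 on day 1 (-3.31 ± 0.25 against WT day 4, limma adjusted p = 0.151, and 0.0134 with a trend).

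Among 11 genes listed for shedding and trimming, 1 rose, the inhibitor Timp3, and 6 fell on day 4 in WT (median -1.46). Timp3, an inhibitor of metalloproteinases including the mucin sheddase ADAM17, had 2797 and 2421 on WT day 4 against 47.0 and 51.9 on WT day 1 (5.69 ± 0.31, limma adjusted p = 0.0062). In heterozygotes it had 515 and 312 (-2.70 ± 0.31 against WT day 4, limma adjusted p = 0.151, and 0.00106 with a trend). At its 3 other probe sets the log2 changes between genotypes were -1.48, -2.30 and -2.82. Mmp7, a matrix metalloproteinase of epithelia, fell to 208 and 61.1, against 9516 and 7345 on day 1 (-6.20 ± 0.63), and had 77.3 and 77.3 in heterozygotes. Adam8 and Adam9, membrane proteases, fell (-3.32 ± 0.44 and -1.71 ± 0.26). The sialidase Neu1 (1.10 ± 0.29) and Adam9 (0.78 ± 0.26) were called higher in heterozygotes in the trend fit (limma adjusted p = 0.0149 and 0.0476).

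Of 12 partners of mucins, 1 rose and 2 fell on day 4 in WT (median -0.14). Rdx, which links membrane proteins to actin, rose by 2.35 ± 0.20. Met, the receptor that MUC20 binds, fell to 498 and 331, against 5524 and 4055 on day 1 (-3.54 ± 0.32, limma adjusted p = 0.00964). The galectin Lgals3, a lectin that binds MUC1 sugars, fell by 2.21 ± 0.21 and had 5008 and 4317 in heterozygotes against 2332 and 2125 in WT on day 4 (1.06 ± 0.21, limma adjusted p = 0.214, and 0.00453 with a trend). Erbb2, the partner of Muc4, had 715 and 682 in heterozygotes, 1056 and 991 in WT on day 4, and 1237 and 1351 on day 1, and passed between neither genotypes nor days in WT, with or without a trend. Msln, the ligand of MUC16, had 2.58 and 9.44 in heterozygotes, 62.5 and 45.4 in WT on day 4, and 75.6 and 205 on day 1, below 50 on 3 of the 6 arrays, and passed only in heterozygotes against WT day 1, where it was lower (limma adjusted p = 0.0403).

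In the list on secretory packaging, 0 of 12 genes rose and 4 fell on day 4 in WT (median -1.22). Galnt12, counted above, also stands in this list. Clca1, a secreted protein of mucus, had 13989 and 5589 in heterozygotes, 383 and 82.9 in WT on day 4, and 35538 and 35672 on day 1. It fell on day 4 in WT (-7.63 ± 0.88, limma adjusted p = 0.0152), and between genotypes its change was 5.62 ± 0.88 (limma adjusted p = 0.179, and 0.000819 with a trend). A second Clca1 probe set had 144 and 66.4 in heterozygotes, 18.8 and 26.4 in WT on day 4, and 1522 and 1666 on day 1. Fcgbp, which binds mucin gels, and the protease Bace2 fell (-3.09 ± 0.38 and -2.51 ± 0.30), and Fcgbp had 4036 and 2398 in heterozygotes against 1755 and 1209 in WT (limma adjusted p = 0.357, and 0.0464 with a trend).

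**Figure D3:**
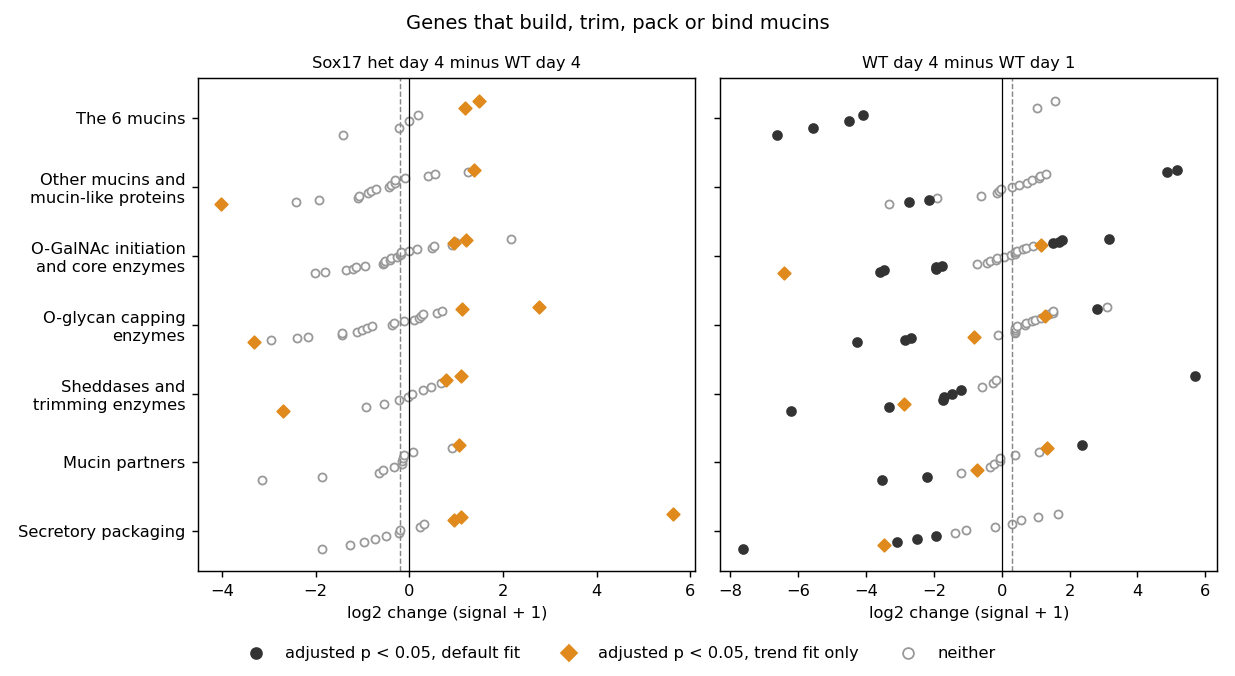
Log2 change of every measured gene of the 7 lists (signal + 1) between genotypes on day 4 and between days in WT. Black points passed at an adjusted p under 0.05 in limma's default fit, orange diamonds in the intensity trend fit alone and open points in neither, and dashed lines are the medians of all genes. Between days the 4 called mucins sit between -6.63 and -4.10, while the other lists spread to both sides.

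**Figure D4:**
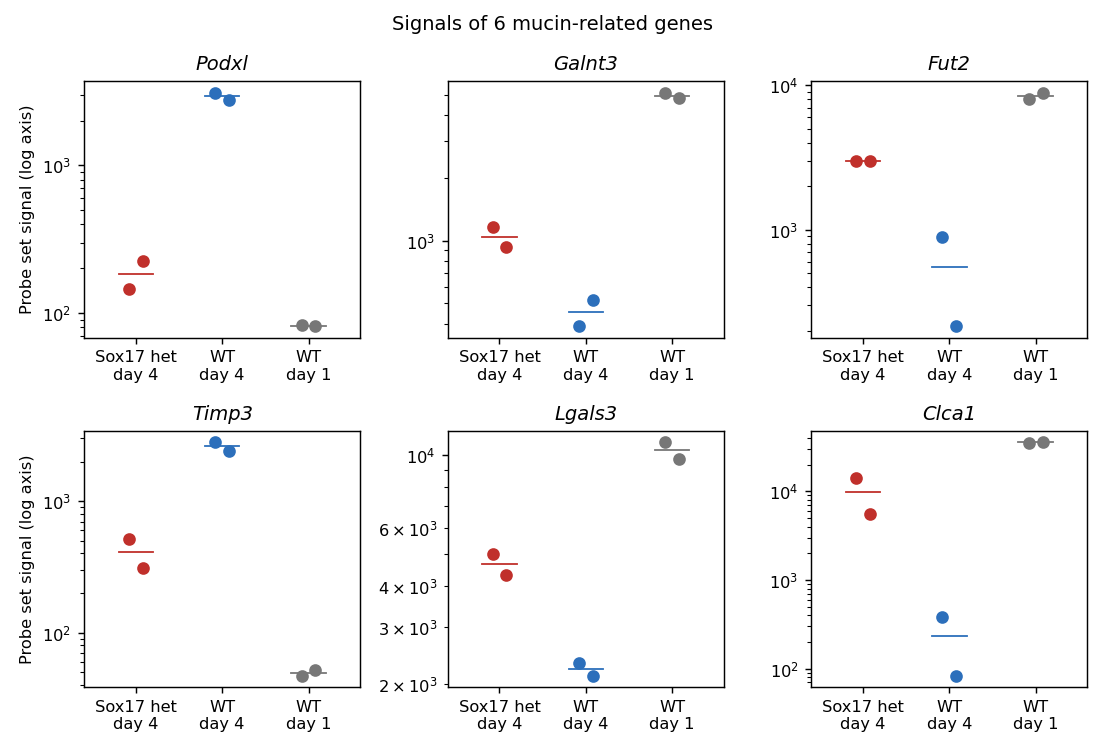
Signals of 1 gene of each of the 6 related lists, chosen after their values were seen, on each array (log axes that differ between panels), with lines at the group means. Podxl and Timp3 were highest in WT on day 4, whereas Galnt3, Fut2, Lgals3 and Clca1 were highest in WT on day 1 and stood between the other 2 groups in heterozygotes.

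Markers of other cells moved with the groups as well. Their counts stand against shares of all genes called of 13.3% by day in WT and 0% between genotypes in the default fit. With a trend these shares were 24.8% and 3.52%. Summed signals of the 8 epithelium markers were 154564 and 152678 in heterozygotes, 147503 and 160340 in WT on day 4, and 159248 and 152423 on day 1. By day in WT their log2 changes ran from -0.95 to 1.39, with 1 of 8 called higher and 0 lower in the default fit and 1 higher and 2 lower with a trend, and between genotypes 0 of 8 were called in the default fit and 1 was higher with a trend. The 8 stroma markers summed to 449 and 846 in heterozygotes, 1594 and 2775 in WT on day 4, and 3478 and 8902 on day 1, with 1 of 8 below 50 on all arrays. By day in WT, 0 of 8 were called in the default fit and 3 of 8 were lower with a trend. Between genotypes 0 of 8 were called in the default fit and 1 of 8 was lower in heterozygotes with a trend. Smooth muscle markers gave 190 and 172 in heterozygotes, 392 and 309 in WT on day 4, and 893 and 891 on day 1, with 1 of 6 lower on day 4 in WT. Mesothelium markers, which are of interest for Muc16, gave 264 and 387 in heterozygotes, 1316 and 612 in WT on day 4, and 781 and 1067 on day 1, with 0 of 6 called in either of these comparisons. Macrophage markers gave 1537 and 1413 in heterozygotes, 2778 and 1667 in WT on day 4, and 6844 and 6357 on day 1, with 2 of 6 higher and 1 of 6 lower on day 4 in WT. Single macrophage markers went both ways by day in WT (log2 changes from -5.01 to 3.18, median 1.47), unlike their lower sum. Gland markers gave 1792 and 1719 in heterozygotes, 1441 and 830 in WT on day 4, and 2605 and 2606 on day 1. The gland sum hides opposite courses: by day in WT the log2 changes ran from -4.05 to 3.30 (median 1.10). In the default fit 1 of 8 was higher and 1 of 8 lower by day. Between genotypes the median was 0.29, with 0 of 8 called. Endothelium, neutrophil, lymphocyte and erythrocyte markers summed to between 9.53 and 386 on every array. Oviduct markers gave 22407 and 12515 in heterozygotes, 6654 and 9250 in WT on day 4, and 3471 and 5122 on day 1. Ovgp1 alone gave 20932 and 10977, 5497 and 7309, and 165 and 288 of these. By day in WT the 5 oviduct markers ran from -1.59 to 4.86 (median -0.60), with 2 of 5 called higher in the default fit. Between genotypes their median was 0.20, with 0 of 5 called. The part of these other cells in the mucin values was not tested.

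For the 4 mucins with a mean signal of at least 100 in a group, the genes most like each were found over the 6 arrays as those with the smallest root mean square difference of centred log2 signals, among 9656 genes with a mean log2 of at least 7. For Muc1 these were Nucb2 (0.15), the membrane protease Tmprss4 (0.18) and the transcription factor Mycn (0.23). Tmprss4 had 1686 and 1511 in heterozygotes, 470 and 610 in WT on day 4, and 9214 and 10275 on day 1. For Muc4 they were Tent5a (0.27), the tetraspanin Tspan33 (0.40) and Tmem213 (0.41), for Muc20 the transporter-family gene Slc16a14 (0.24), Ankrd37 (0.29) and Nupr1 (0.32), and for Muc13 Ier5 (0.26), Rnd3 (0.34) and the protease inhibitor Serpinb1a (0.36). Likeness over 6 arrays in 3 groups says no more than that these signals took a similar course.

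Muc4 and Muc20 are neighbours on chromosome 16, and their annotated spans overlap on opposite strands in RefSeq (GRCm38.p6). Both fell on day 4, whereas Tnk2, a kinase gene next to Muc4, was at 0.87 in WT on day 4 against day 1 (limma adjusted p = 0.0628). On the other side Smbd1, next to Muc20, had no probe set under its symbol, and Rubcn, an autophagy regulator one step beyond it, was at 0.98 (limma adjusted p = 0.0727). Tfrc, the transferrin receptor gene one step beyond Tnk2, fell by 3.86 (limma adjusted p = 0.00717) and was at 2.72 in heterozygotes against WT on day 4 (adjusted p = 0.151). Between genotypes Muc4 and Muc20 were at 1.49 and 0.18. The genes next to Muc13, Heg1 and Itgb5, were at -0.72 and 0.23 between days (limma adjusted p = 0.428 and 0.578), beside -4.51 for Muc13.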

How the data were processed

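Epithelial RNA was labelled from 100 ng and hybridised to 1-colour Affymetrix 3′ arrays, 1 per sample, per the labels' protocols. The authors deposited 1 intensity per probe set, on a linear scale. The submitters' processing notes name Affymetrix Expression Console, Transcriptome Analysis Console and RMA without versions, but a trimmed mean of 500 on every array is not the form of RMA output, and the summary used is therefore unsettled.

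Of 45101 probe sets, 34945 had 1 gene symbol, 932 several, 9160 none listed and 64 were controls; the first were used. The probe set with the highest mean log2 stood for each of 18193 genes. Values were taken as log2(signal + 1), which understates changes of dim genes, without filter or further normalization. A limma fit (version 3.58.1, R 4.3.3) covered the 6 arrays, with 1 coefficient per group, 3 residual degrees of freedom, eBayes at default settings, Benjamini-Hochberg over all genes, adjusted p under 0.05. The "intensity trend" is eBayes with a trend, and errors after ± are standard errors of the default fit throughout. The fits were run on simulated data, whose independent noise followed mean intensity and was alike on every array. Those data lack the raised dim range of WT day 4 array 277, so they do not tell which fit suits these arrays. No label pairs samples or names a batch. With 2 arrays against 2, the smallest p of an exact permutation test is 0.333, and none was used.

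Members and gene lists were chosen with earlier results of these data known. Genes named were all members, Sox17, the 3 nearest by likeness, chromosome neighbours and at most 4 of each related list per comparison (those called first, then by p). Beyond that rule, Muc2, Muc5ac and Muc5b were named after their values were seen, and Muc6 and Muc19 because they had no probe set. Of 18 lists, the epithelium and other-cell lists served for summed signals. Alternatives were quantile normalization, centring on the median, a pseudocount of 32, leaving out dim genes (mean log2 under 6), trend or robust priors, the mean of probe sets, every probe set, 4 arrays, array weights, each array left out and an adjusted p of 0.10; the trend fit without each array or after centring was added after seeing the data.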

Additional observations from a re-analysis of the deposited data

How the results depend on the processing

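No paired analysis was possible because the groups share no sample numbers. The 4 day calls (Muc1, Muc4, Muc13 and Muc20) kept their direction under every alternative run. Without an array, the default fit called 0 to 5 mucins for WT day 4 against day 1 (genes 0 to 2459), 0 for heterozygous against WT on day 4 (genes 0) and 0 to 4 for heterozygous day 4 against WT day 1 (genes 0 to 2077). With an array left out and a trend together, these were 4 to 5 (genes 3177 to 5496), 0 to 2 (genes 110 to 1397) and 4 (genes 2259 to 4941). With only the 4 arrays compared, Muc20 lost its day call (adjusted p = 0.0578) and 616 genes passed. In the same order of comparisons, genes called were 1408, 5 and 1101 after centring on the median (587 higher and 821 lower by day, against 1379 and 1042 as reported), 4080, 108 and 3405 without dim genes, and 4506, 640 and 3880 with a trend, which called 2 mucins between genotypes. A pseudocount of 32 gave 4 genes between genotypes and 2753 in the third comparison, array weights gave 1431 and 3384 in the comparisons with day 1, and an adjusted p of 0.10 gave 3908 and 3088. Trend and centring together gave 229 genes (173 higher and 56 lower, against 351 and 289 by trend alone) and 1 mucin. Centring moved the median change of all genes to 0.00, 0.25 and 0.16. Averaging all probe sets per gene gave -1.55 for Muc13 (against -0.01 as reported), 0.96 for Muc4 and 0.73 for Muc20 between genotypes, none called. Between genotypes, values that missed the threshold changed sign. Muc13 was at 0.59 after quantile normalization, 0.43 after centring (either prior) and 0.011 with a pseudocount of 32, and ranged from -0.51 to 0.48 without an array. Muc15 was at 0.46 after quantile normalization and 0.22 after centring, and ranged from -2.17 to 1.71 without an array, and Muc20 from -0.68 to 1.04. Muc15 by day ranged from -0.36 to 3.52. The related genes called by day were 30, and 12 on 4 arrays; the causes of these shifts were not tested. Signals near or below 50 limit what can be said of Muc13 on day 4 and of Muc15 and Muc16 throughout.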
